A study of Mus musculus with 11 samples.

Results

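The GATA, TAL1 and LMO2 factor complex is a set of DNA-binding proteins and bridging proteins that act together in early blood cells. A GATA factor binds GATA letters in DNA, a TAL1 or LYL1 dimer with an E protein binds a nearby E-box, and LMO2 and LDB1 join them and can loop distant sites together. Its GATA1 form is known for driving red cell, megakaryocyte, mast cell and eosinophil genes, and its GATA2 form for working in progenitors. The genes were 10 named members, found by mouse symbol among the 51912 genes of a count table: the GATA factors Gata1, Gata2 and Gata3, the GATA cofactor Zfpm1 (encoding FOG1), the basic helix-loop-helix factors Tal1 and Lyl1, the bridging proteins Lmo2 and Ldb1, and the repressors Gfi1b and Cbfa2t3 (encoding ETO2). Each of the 10 was matched to a single Ensembl identifier.

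The samples were RNA-seq libraries of lineage-negative C57BL/6 mouse bone marrow that carried 2 retroviral vectors, marked by GFP and RFP, and had been sorted for both colours. The first vector was active from the start and the other was switched on by a Cre recombinase that 4-hydroxytamoxifen activates. All cells were cultured for 48 h with 4-hydroxytamoxifen and without added cytokines. CSF3R-only cells (n = 4) held the active vector with an activating membrane-proximal mutant of CSF3R, the receptor for granulocyte colony-stimulating factor, and an empty inducible vector. CSF3R-first cells (n = 3) held the same active CSF3R vector and an inducible vector with a C-terminal mutant of CEBPA, a factor of myeloid differentiation. CEBPA-first cells (n = 4) held the mutant CEBPA in the active vector and the mutant CSF3R in the inducible vector. The study paired the inducible vector with marrow of mice that carry Cre fused to a modified estrogen receptor at Rosa26 (ERT2-Cre), a genotype shared by all groups. The transgenes were thus driven by viral vectors in mixed progenitors, no group lacked mutant CSF3R, and the methods give donor age only as ranges that are not tied to single libraries. The number of mice behind each library is not given in the sources used here. The question was whether the order of the oncogenes changes the factor genes. Neither the labels nor the methods say that replicates came from separate animals or cultures, so p-values measure the spread between these samples, which may be technical. Total counts ranged from 47905747 to 72268346 per library, and the 10 members held between 4 and 24550 counts in a library. Of the 12 listed T and innate lymphoid markers, Cd3e and Cd8a were at 0 in every library and Cd3d, Cd3g, Cd4 and Trac were at means of 0.242, 0.0341, 0.191 and 0.0715 CPM in CSF3R-only cells (CPM are counts scaled to a common library size with edgeR's TMM factors). Others of that list were higher there, with Il7r at 41.3, Tcf7 at 4.38, Rora at 3.63 and Lck at 1.75 CPM. The whole list summed to 42.5 to 63.0 CPM in CSF3R-only libraries, and the 14 neutrophil markers to 27344 to 32673.

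Promoters are shown for Gfi1b and Tal1, which were lower in CEBPA-first cells, and for Cbfa2t3, which was higher. They were picked because a window of each holds the letters that GATA factors are known to bind. The sequences are RefSeq windows of 250 bases before a start site on GRCm38.p6, written 5′ to 3′ on the strand of the gene. Capitals mark matches on either strand to AGATAA or TGATAA (read as TTATCT or TTATCA when on the other strand) and to the E-box letters CAGATG and CAGCTG. The Gfi1b window shown is chr2:28621983-28622232 on the minus strand, the Tal1 window chr4:115056176-115056425 on the plus strand and the Cbfa2t3 window chr8:122699110-122699359 on the minus strand. Another Tal1 window and another Cbfa2t3 window, not shown, held none of these letters.
Gfi1b: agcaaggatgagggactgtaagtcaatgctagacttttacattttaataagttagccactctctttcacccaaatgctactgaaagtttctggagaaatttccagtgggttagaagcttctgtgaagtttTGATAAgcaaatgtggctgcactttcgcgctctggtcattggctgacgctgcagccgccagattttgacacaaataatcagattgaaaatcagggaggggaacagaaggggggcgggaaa
Tal1: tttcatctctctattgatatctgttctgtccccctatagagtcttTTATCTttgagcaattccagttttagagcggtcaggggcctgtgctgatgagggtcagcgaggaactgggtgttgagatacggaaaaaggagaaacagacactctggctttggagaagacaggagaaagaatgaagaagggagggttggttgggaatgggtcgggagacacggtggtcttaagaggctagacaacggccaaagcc
Cbfa2t3: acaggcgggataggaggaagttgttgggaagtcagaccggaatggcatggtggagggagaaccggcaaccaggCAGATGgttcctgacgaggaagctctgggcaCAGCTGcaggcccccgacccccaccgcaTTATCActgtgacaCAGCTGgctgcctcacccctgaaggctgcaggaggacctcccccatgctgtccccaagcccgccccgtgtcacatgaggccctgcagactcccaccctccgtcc

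The GATA letters began at -120 from the start site in Gfi1b, at -205 in Tal1 and at -118 in Cbfa2t3. The Cbfa2t3 window also held CAGATG at -177 and CAGCTG at -146 and -104. A window of Ldb1 held AGATAA at -240 and -200. In all, 4 of 14 member windows (28.6%), from 4 of the 9 members with a window, held AGATAA or TGATAA, and 16.6% of 32851 windows of all genes did. CAGATG was in 14.4% and CAGCTG in 13% of those windows, and no overlap between motifs was removed. No window was given for Lmo2. Such letters are a description of the sequence and are not binding sites measured here.

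In CEBPA-first against CSF3R-only cells the complex split. These groups differ both in mutant CEBPA and in whether mutant CSF3R was in the active or the inducible vector, which cannot be told apart here. Gata1, Zfpm1, Tal1 and Gfi1b fell by 0.73 to 1.07 on the log2 scale, whereas Lmo2 rose by 1.08, Cbfa2t3 by 0.55, Lyl1 by 0.24, Ldb1 by 0.21 and the barely expressed Gata3 by 1.88. Gata2 did not pass the test (log2 fold change -0.35, adjusted p = 0.053). Thus 9 of 10 members passed at an adjusted p of 0.05, 5 higher and 4 lower, against 72.0% of all 15703 tested genes, 35.4% higher and 36.6% lower. The share of members that passed must be read against that wide background. Of the 10, 3 were also past the fold threshold of the study, an absolute log2 fold change above 1, where 27.0% of genes were. The groups did not overlap for 9 members, where 68.7% of genes had no overlap. The median log2 fold change was -0.07 over members and -0.00 over all genes, and the median absolute one was 0.80 and 0.59. In bulk RNA, fewer cells of a type and less RNA per cell cannot be told apart.

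**Figure D1:**
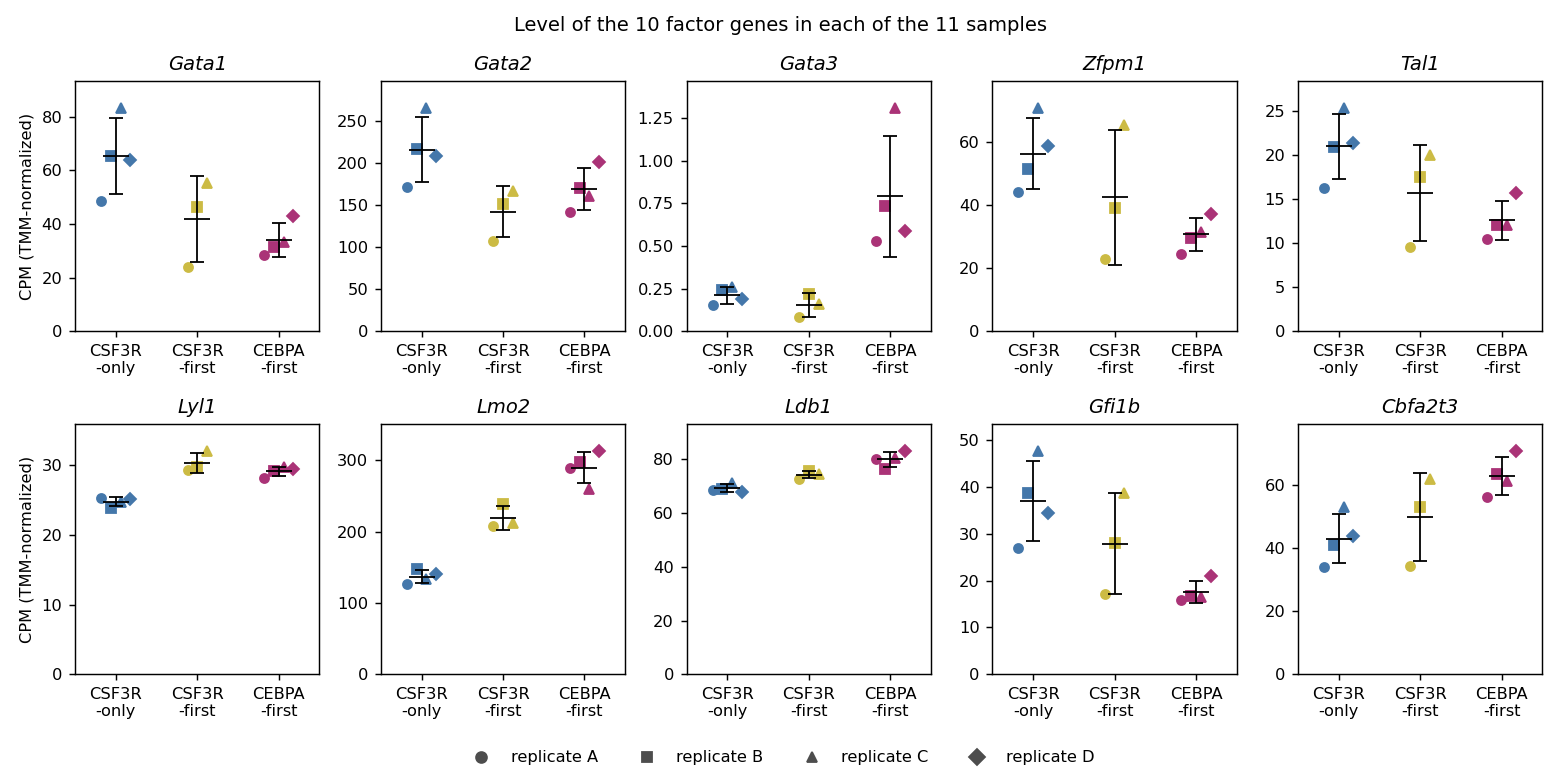
TMM-normalized CPM of the 10 factor genes (one panel each, linear axis from 0) in samples of the 3 groups. Points are samples with a symbol for each replicate letter, and bars are mean ± SD. Lmo2 steps up from 137 through 219 to 290 CPM with no overlap, whereas the CSF3R-first samples of Gata1, Zfpm1, Tal1 and Gfi1b spread widely.

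Among the GATA factors, Gata1 encodes the red cell and megakaryocyte regulator. Its CPM in CSF3R-only replicates A to D was 48.6, 65.2, 83.3 and 64.0. It was 23.9, 46.5 and 55.2 in CSF3R-first replicates A to C, and 28.3, 31.4, 33.2 and 42.8 in CEBPA-first replicates A to D. All CEBPA-first samples lay below all CSF3R-only samples, and the CSF3R-first samples reached from below the former to within the latter. The log2 fold change was -0.94 (SE 0.23, edgeR quasi-likelihood test, Benjamini-Hochberg adjusted p = 0.0021) in CEBPA-first against CSF3R-only. It was -0.31 (adjusted p = 0.32) against CSF3R-first, and -0.64 (adjusted p = 0.051) in CSF3R-first against CSF3R-only.

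Gata2, the GATA factor of progenitors and mast cells, had the highest level of the GATA genes in every sample per kb of exon. Its CPM was 172, 217, 266 and 209 in CSF3R-only replicates, 108, 152 and 167 in the CSF3R-first group and 142, 171, 161 and 202 in the CEBPA-first group. CSF3R-first was the lowest group, wholly below CSF3R-only, and CEBPA-first overlapped both. Gata2 fell in CSF3R-first against CSF3R-only (log2 fold change -0.60, SE 0.17, adjusted p = 0.012) but missed the adjusted threshold in CEBPA-first, where the unadjusted 95% interval of the change was -0.69 to -0.02. The direct difference between CEBPA-first and CSF3R-first was 0.25 (adjusted p = 0.24), and leaving out CSF3R-first replicate A gave 0.09 and leaving out its replicate C gave 0.37, neither of them a call.

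Gata3, best known in T cells and innate lymphoid cells, was nearly absent. It had 7, 12, 13 and 12 raw counts in CSF3R-only libraries, 4, 11 and 10 in the CSF3R-first group and 31, 43, 68 and 46 in the CEBPA-first group. Every CEBPA-first sample was above every other sample, at 0.531, 0.733, 1.31 and 0.587 CPM against at most 0.262. The log2 fold change was 1.88 (SE 0.36, adjusted p = 0.00039) against CSF3R-only and 2.33 (SE 0.42, adjusted p = 0.00075) against CSF3R-first. The gene reached the level of the low-count filter (0.187 CPM) in 4 of 4 CEBPA-first, 2 of 4 CSF3R-only and 1 of 3 CSF3R-first samples, and it was not tested where at least 10 counts were required in every sample. The other 9 members reached it in every sample. Of the T and innate lymphoid markers, 6 of 12 could be tested. In CEBPA-first against CSF3R-only Lck (log2 fold change 1.30), Tcf7 (1.38) and Klrb1c (3.09) rose like Gata3, whereas Il7r (-2.42) and Cd3d (-2.25) fell, with a median of 0.49. Their summed level was 25.3 to 28.6 CPM in CEBPA-first and 42.5 to 63.0 in CSF3R-only cells, most of it from Il7r in the latter (a mean of 41.3). The part of such cells in the Gata3 result was not tested. The annotated exons of Gata3 share 3.9% of their length with the antisense gene Gm13256 and 1.9% with the coding gene 9230102O04Rik on the same strand. Counting by strand was not stated, and reads from the part shared on the same strand cannot be told apart either way.

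Zfpm1 encodes FOG1, which GATA1 needs to direct red cell and megakaryocyte genes. Its CPM was 44.1, 51.4, 70.7 and 58.7 in CSF3R-only replicates, 22.8, 39.0 and 65.2 in the CSF3R-first group and 24.4, 29.6, 31.5 and 37.0 in the CEBPA-first group. CSF3R-first replicate A was below all CEBPA-first samples and replicate C was near the top of CSF3R-only. Zfpm1 fell in CEBPA-first against CSF3R-only (log2 fold change -0.88, SE 0.25, adjusted p = 0.007), and the CSF3R-first group did not differ detectably from either other group (adjusted p = 0.17 and 0.25). This depended on single libraries. The change in CEBPA-first against CSF3R-first was -0.76 without CSF3R-first replicate A and -0.02 without its replicate C.

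The basic helix-loop-helix pair moved in opposite directions. Tal1, needed for blood formation and for red cell and megakaryocyte maturation, was at 16.3, 21.0, 25.4 and 21.4 CPM in CSF3R-only replicates, 9.54, 17.5 and 20.0 in the CSF3R-first group and 10.5, 12.1, 12.1 and 15.7 in the CEBPA-first group. It fell in CEBPA-first against CSF3R-only (log2 fold change -0.73, SE 0.20, adjusted p = 0.0056), with no overlap. Its paralog Lyl1, which can share TAL1 functions in stem cells, was tightly grouped. Lyl1 CPM was 25.3, 23.8, 24.7 and 25.1 in CSF3R-only replicates, 29.3, 29.7 and 32.0 in the CSF3R-first group and 28.2, 29.1, 29.7 and 29.4 in the CEBPA-first group. Both groups with mutant CEBPA lay above CSF3R-only, by 0.24 (SE 0.05, adjusted p = 0.0018) in CEBPA-first and 0.30 (SE 0.06, adjusted p = 0.0019) in CSF3R-first on the log2 scale. They differed from each other by -0.06 (adjusted p = 0.42, 95% interval -0.19 to 0.07).

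Of the bridging proteins, Lmo2, a LIM-only protein that is a T-cell oncogene when misexpressed, changed in all 3 comparisons. Its CPM was 126, 148, 133 and 141 in CSF3R-only replicates, 208, 239 and 212 in the CSF3R-first group and 289, 297, 260 and 313 in the CEBPA-first group. The groups rose in steps without overlap. The log2 fold change was 1.08 (SE 0.08, adjusted p = 7e-08) in CEBPA-first and 0.68 (SE 0.08, adjusted p = 7.1e-05) in CSF3R-first against the same CSF3R-only samples. It was 0.40 (SE 0.08, adjusted p = 0.0017) between the orders. Ldb1, whose protein dimerizes to bring complexes together, was at 68.6, 68.7, 71.2 and 67.8 CPM in CSF3R-only replicates, 72.6, 75.4 and 74.5 in the CSF3R-first group and 79.9, 76.3, 80.2 and 82.9 in the CEBPA-first group. Its groups did not overlap either, but the rise was small (log2 fold change 0.21, SE 0.05, adjusted p = 0.0015) and only CEBPA-first against CSF3R-only passed. The exons of Ldb1 share 3.8% of their length with Pprc1 on the opposite strand.

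The repressors also parted. Gfi1b, a zinc finger repressor of red cells and platelets that recruits LSD1 and CoREST, was at 27.0, 38.6, 47.6 and 34.5 CPM in CSF3R-only replicates, 17.1, 27.9 and 38.6 in the CSF3R-first group and 15.8, 16.8, 16.5 and 21.0 in the CEBPA-first group. It fell in CEBPA-first against CSF3R-only (log2 fold change -1.07, SE 0.22, adjusted p = 0.00061), with no overlap. It was also lower than in CSF3R-first (log2 fold change -0.67, SE 0.23, adjusted p = 0.03). These groups overlapped, and leaving out any of 5 libraries removed this call. Cbfa2t3 encodes ETO2, a corepressor that binds the complex and holds red cell genes back before maturation. Its CPM was 34.0, 41.0, 52.9 and 43.6 in CSF3R-only replicates, 34.4, 53.0 and 61.7 in the CSF3R-first group and 56.2, 63.2, 61.2 and 70.6 in the CEBPA-first group. It rose in CEBPA-first against CSF3R-only (log2 fold change 0.55, SE 0.16, adjusted p = 0.0081), and the CSF3R-first samples reached into both other groups. The exons of Cbfa2t3 share 3.5% of their length with the antisense gene Gm10612.

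**Figure D2:**
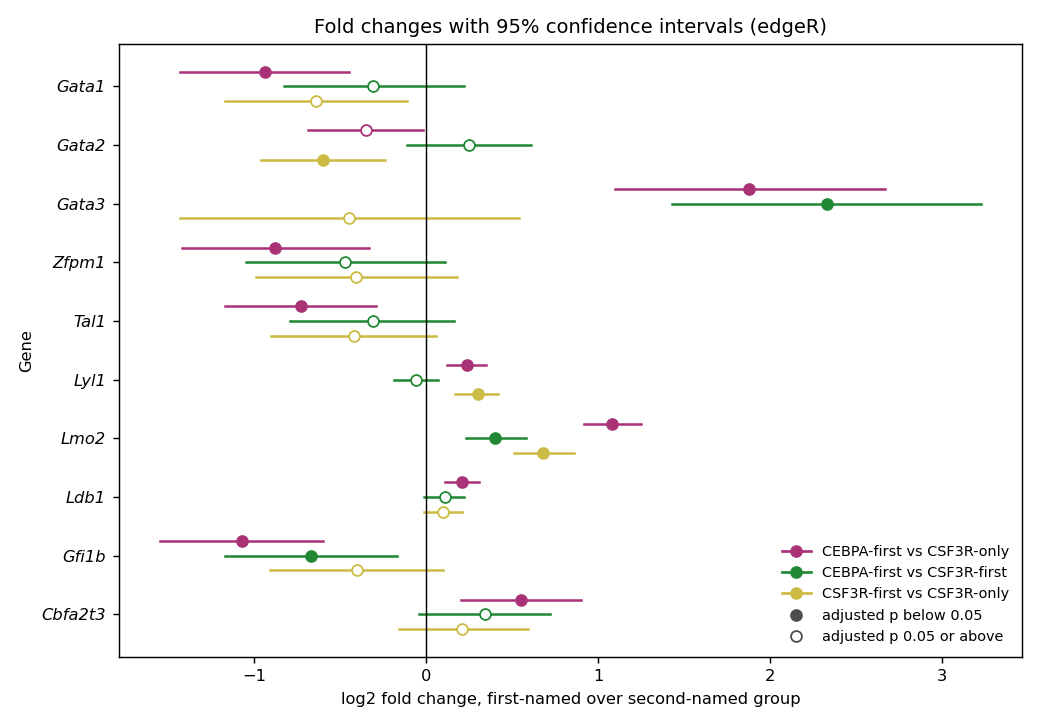
Log2 fold change (x axis) of each factor gene (y axis) in the 3 comparisons, with 95% confidence intervals from edgeR as lines. Filled points passed an adjusted p of 0.05. In CEBPA-first against CSF3R-only, 9 of 10 points are filled, 5 to the right of 0 and 4 to the left, against 3 of 10 in each of the other comparisons.

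Between the orders of mutation, CEBPA-first against CSF3R-first, 3 of 10 members passed: Gata3 and Lmo2 were higher and Gfi1b was lower. Of all genes 48.3% passed, 24.0% higher and 24.3% lower. Only Gata3 was past the fold threshold, where 12.8% of genes were, and the groups of 3 members did not overlap (52.2% of genes). In CSF3R-first against CSF3R-only, 3 of 10 members passed: Lmo2 and Lyl1 were higher and Gata2 was lower. Of all genes 42.7% passed, 21.6% higher and 21.1% lower. The largest of these changes, Lmo2 at 0.68, was below the fold threshold, which 6.65% of genes passed, and the groups of 4 members (Gata2, Lyl1, Lmo2 and Ldb1) did not overlap (42.1% of genes). The median log2 fold change of the members was 0.02 in the first of these comparisons and -0.41 in the other, beside 0.00 and -0.02 over all genes.

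Of the calls that involve CSF3R-first cells, those of Gata2, Gata3, Lyl1 and Lmo2 held when any library was left out. Gfi1b in CEBPA-first against CSF3R-first lost its call without CSF3R-first replicate B (log2 fold change -0.67) or C (-0.37), or without CEBPA-first replicate A (-0.62), B (-0.65) or C (-0.64). Without CSF3R-first replicate A, 6 members passed in that comparison, since Gata1 (-0.58), Zfpm1 (-0.76) and Tal1 (-0.56) then also fell. Over all genes fewer passed without that replicate, 6032 against 7578 with all libraries. Without CSF3R-first replicate C, Cbfa2t3 also passed (0.51). In CSF3R-first against CSF3R-only, 6 members passed without CSF3R-first replicate C, with Gata1 at -0.87, Zfpm1 at -0.84 and Gfi1b at -0.69, and Cbfa2t3 passed without CSF3R-first replicate A (0.42). Gata1 also passed there without CSF3R-only replicate A (-0.76) or CEBPA-first replicate D (-0.64). In CEBPA-first against CSF3R-only, leaving out any library kept all 9 calls, and Gata2 passed too without CSF3R-only replicate A (-0.45), CSF3R-first replicate A (-0.35) or CEBPA-first replicate D (-0.45).

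The spread of the members within the CSF3R-first group was uneven. In these cells the coefficient of variation was 50.5% for Zfpm1, 45.7% for Gata3, 38.7% for Gfi1b, 38.6% for Gata1, 34.9% for Tal1, 28.1% for Cbfa2t3 and 21.6% for Gata2. It was 7.88% for Lmo2, 4.85% for Lyl1 and 1.93% for Ldb1, beside a median of 13.1% over all genes. Replicate A was the lowest CSF3R-first sample for 10 of 10 members, whereas it was the lowest for 41.0% of all genes. On the log2 scale against the CSF3R-only mean, Gata1 stood at -1.45, -0.49 and -0.24 in CSF3R-first replicates A, B and C, and Zfpm1 at -1.30, -0.53 and 0.21. Lmo2 stood at 0.60, 0.81 and 0.63. Replicate A was also lowest for 8 members in CSF3R-only (35.5% of all genes) and in CEBPA-first cells (18.6%), and replicate D was highest for 8 in CEBPA-first cells (25.5%). Replicate C was highest for 8 members in CSF3R-only (21.0% of all genes) and for 7 in CSF3R-first cells (25.9%).

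Several marker lists differed between these replicates, in both directions. The summed level of the 12 listed erythroid genes was 143, 280 and 446 CPM in CSF3R-first replicates A, B and C, 320, 358, 472 and 394 in CSF3R-only replicates A to D, and 58.7, 71.2, 75.4 and 84.2 in CEBPA-first replicates A to D. In each group the lowest and the highest sample were the same for this sum and for Gata1. Megakaryocyte markers (10 genes) summed to 355, 384 and 559 CPM in the CSF3R-first replicates, 947 to 1282 in CSF3R-only and 114 to 158 in CEBPA-first cells. Mast cell and basophil markers (11 genes) summed to 1232 to 1464, 1976 to 2894 and 1238 to 1609 CPM in that order of groups, and eosinophil markers (8 genes) to 60.9 to 141, 248 to 378 and 30.5 to 38.8 CPM. Of the 10 tested mast cell and basophil genes, 7 fell in CEBPA-first against CSF3R-only (36.6% of all genes) and Fcer1a rose (log2 fold change 1.15). CSF3R-first replicate A, the lowest for the factor genes, was the highest of its group for neutrophil markers (28864 CPM against 18809 and 20926 in B and C), monocyte markers (6206 against 3794 and 4734) and eosinophil markers (141 against 60.9 and 85.8). Across the groups, neutrophil markers (14 genes) summed to 27344 to 32673 CPM in CSF3R-only and 12511 to 14391 in CEBPA-first cells, but they went both ways. Of these genes 10 fell in CEBPA-first against CSF3R-only (36.6% of all genes) and 4 rose (35.4%). Ltf (log2 fold change -5.66) and Mmp9 (-5.59) fell most, and S100a9 (-2.86) and S100a8 (-2.65) fell less. The 4 that rose were the granule protease and peroxidase genes Prtn3 (1.51), Ctsg, Elane (1.27) and Mpo (0.88). Stem and early progenitor markers (10 genes) summed to 470 to 684 CPM in CSF3R-only cells, to 316 to 347 in the CSF3R-first group and to 180 to 200 in the CEBPA-first group, most of it from Ly6a in CSF3R-only cells (a mean of 402, against 63.2 in CEBPA-first). In CEBPA-first against CSF3R-only 5 of these genes fell (36.6% of all genes) and 4 rose (35.4%). Slamf1 (-2.78), Ly6a (-2.67), Cd34 (-2.31), Procr (-2.07) and Meis1 (-1.55) fell. Mecom (6.47), Hlf (2.26), Flt3 (1.50) and Kit (0.33) rose. The part of these markers in the changes of the factor genes was not tested.

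**Figure D3:**
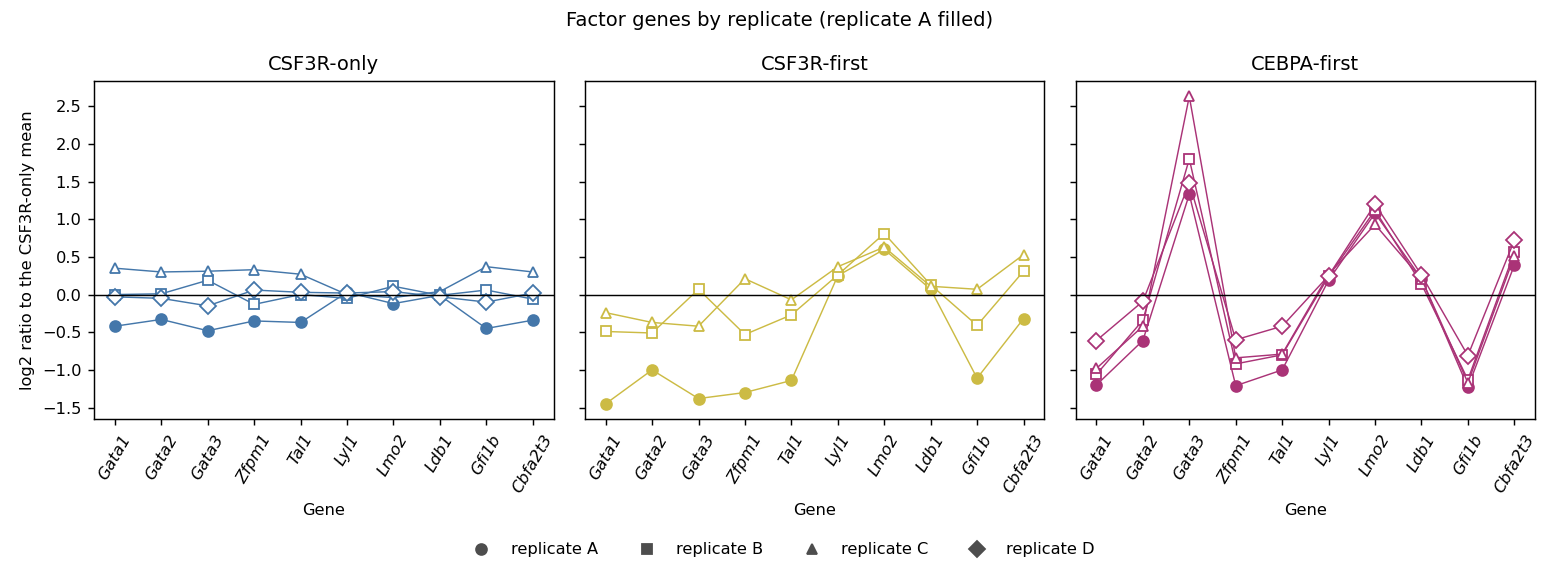
Log2 ratio of each sample to the CSF3R-only mean (y axis) for the 10 factor genes (x axis), in a panel per group. Each line is a sample and replicate A is filled. In CSF3R-first cells, replicate A is below the others for all 10 genes, down to -1.45 for Gata1, while the samples nearly coincide at Lyl1, Lmo2 and Ldb1.

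Per kb of annotated exon, a scale on which levels of different genes can be set side by side, Lmo2 was the most abundant member in every group and Gata3 the least. In CSF3R-only cells Lmo2 was at 63.2 ± 4.27 CPM per kb (SD, n = 4), Gata2 at 40.0 ± 7.21, Gata1 at 26.8 ± 5.81, Gfi1b at 20.2 ± 4.70 and Zfpm1 at 16.0 ± 3.24. Ldb1 at 15.0 ± 0.322, Lyl1 at 13.7 ± 0.350, Cbfa2t3 at 5.12 ± 0.935, Tal1 at 4.80 ± 0.854 and Gata3 at 0.0530 ± 0.0126 followed. The sample ranges of neighbours overlapped from Gata2 through Gata1, Gfi1b and Zfpm1 to Ldb1, and for Cbfa2t3 and Tal1, but not for Lmo2 and Gata2, Ldb1 and Lyl1, Lyl1 and Cbfa2t3 or Tal1 and Gata3. In CSF3R-first cells Lmo2 was at 101 ± 7.99 (n = 3), then Gata2 at 26.4 ± 5.70, Gata1 at 17.2 ± 6.63, Lyl1 at 16.9 ± 0.818, Ldb1 at 16.1 ± 0.310, Gfi1b at 15.2 ± 5.89, Zfpm1 at 12.1 ± 6.10, Cbfa2t3 at 5.94 ± 1.67, Tal1 at 3.58 ± 1.25 and Gata3 at 0.0386 ± 0.0176 CPM per kb. There all neighbours from Gata2 to Tal1 had overlapping ranges. In CEBPA-first cells Lmo2 was at 134 ± 10.3 (n = 4), Gata2 at 31.3 ± 4.69, Ldb1 at 17.3 ± 0.591, Lyl1 at 16.2 ± 0.367, Gata1 at 13.9 ± 2.56, Gfi1b at 9.57 ± 1.30, Zfpm1 at 8.74 ± 1.49, Cbfa2t3 at 7.50 ± 0.711, Tal1 at 2.88 ± 0.503 and Gata3 at 0.198 ± 0.0892 CPM per kb. Only Lyl1 and Gata1, Gfi1b and Zfpm1, and Zfpm1 and Cbfa2t3 overlapped as neighbours. By this length Gata1 thus ranked 3 in CSF3R-only and 5 in CEBPA-first cells, behind Ldb1 and Lyl1. Per kb of the longest transcript it ranked 4 in CEBPA-first cells, ahead of Lyl1.

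Ratios between partner genes were taken within each sample, per kb of exon. The CSF3R-only cells had a Gata2 level over the Gata1 level of 1.50 ± 0.0660 (SD, n = 4). The ratio was 1.63 ± 0.362 (n = 3) with CSF3R first and 2.26 ± 0.139 (n = 4) with CEBPA first. The CEBPA-first ratios (2.14 to 2.46) lay above those of all other samples, of which CSF3R-first replicate A was the nearest at 2.04. The Lyl1 level over the Tal1 level was 2.94 ± 0.599 in CSF3R-only and 5.72 ± 0.835 in CEBPA-first cells, and the CSF3R-first replicates A, B and C stood at 7.48, 4.14 and 3.89, replicate A being the highest of all samples. The Lmo2 level over the Ldb1 level was 4.22 ± 0.323, 6.29 ± 0.401 and 7.73 ± 0.601, and the 3 groups did not overlap. The ratios are descriptions made from the levels above and were not tested.

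**Figure D4:**
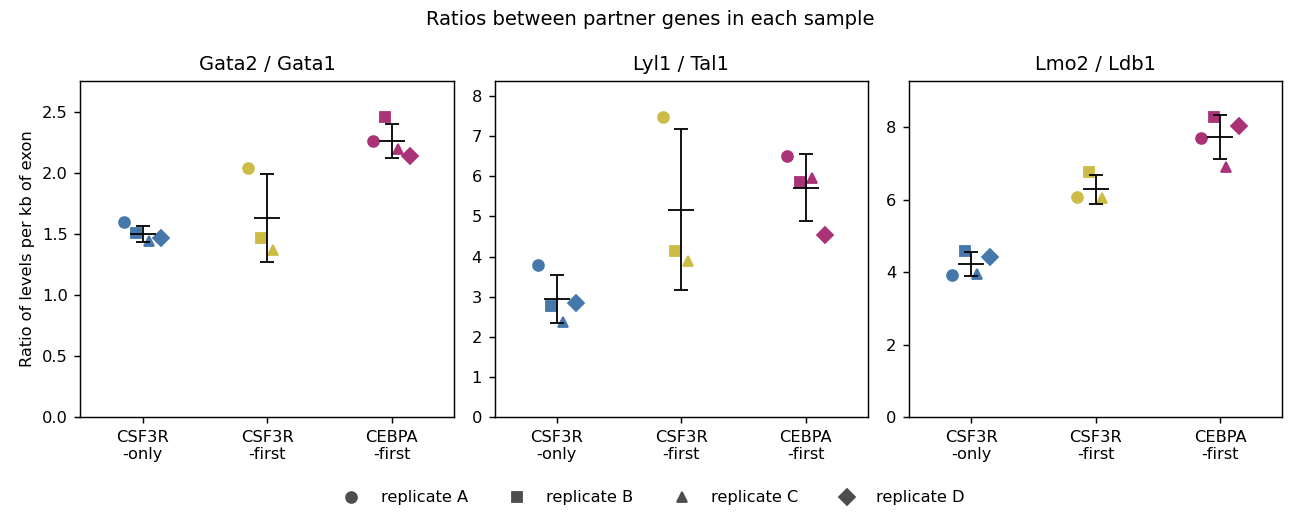
Ratio of levels per kb of exon (y axis from 0) for 3 pairs of partner genes, by group (x axis), with points for samples, symbols for replicate letters and bars for mean ± SD. Gata2 over Gata1 is highest in the CEBPA-first samples, at 2.14 to 2.46, and Lmo2 over Ldb1 steps up from 4.22 through 6.29 to 7.73.

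For the 3 members past the fold threshold in CEBPA-first against CSF3R-only, CSF3R-first samples were placed on a log2 scale from 0 at the CSF3R-only mean to 1 at the CEBPA-first mean. Lmo2 lay at 0.63 ± 0.10 (SD, n = 3), with replicates at 0.56, 0.75 and 0.58. Gfi1b lay at 0.43 ± 0.56, and its replicates A, B and C at 1.03, 0.36 and -0.09 reached from the CEBPA-first to the CSF3R-only mean. Gata3 lay at -0.26 ± 0.34, with replicates at -0.63, 0.05 and -0.19, which is within 1 SD of the CSF3R-only mean.

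The E proteins that pair with TAL1 and LYL1 rose, and their inhibitors fell. Of 6 tested genes in this group, 3 were higher and 3 lower in CEBPA-first against CSF3R-only (median log2 fold change -0.44), where 72.0% of all genes passed. Tcf4 was at 34.8 ± 0.806 CPM in CSF3R-only cells, 50.0 ± 2.56 in the CSF3R-first and 73.4 ± 1.73 in the CEBPA-first group (log2 fold change in CEBPA-first against CSF3R-only 1.08, adjusted p = 2.9e-09), and Tcf3 and Tcf12 rose by 0.46 and 0.51. Id2, whose protein binds E proteins without binding DNA, was at 368 ± 22.1, 245 ± 62.0 and 84.0 ± 17.8 CPM in those groups (log2 fold change -2.13, adjusted p = 1.2e-07), and Id1 and Id3 fell by 1.34 and 1.51. Between the orders all 6 passed in the same directions (48.3% of all genes passed), and in CSF3R-first against CSF3R-only Tcf4 rose while Id1, Id2 and Id3 fell (42.7% passed). Id4 was too low to be tested.

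In the LIM and LDB family and among proteins that set LDB1 stability, 3 of 6 tested genes rose and 2 fell in CEBPA-first against CSF3R-only (median log2 fold change 0.14), a share close to the 72.0% of all genes that passed, with 35.4% higher and 36.6% lower. Lmo1, the relative of Lmo2, was at 4.35 ± 0.373 CPM in CSF3R-only cells, 13.9 ± 2.01 in the CSF3R-first and 15.8 ± 1.43 in the CEBPA-first group. It rose by 1.86 in CEBPA-first and by 1.68 in CSF3R-first against CSF3R-only on the log2 scale (adjusted p = 1.5e-08 and 8.1e-07), and the orders differed by 0.18 (adjusted p = 0.2). Ssbp2, a single-stranded DNA-binding protein that protects LDB1, rose by 0.70, and Rlim, a ubiquitin ligase of LIM cofactors, by 0.43. Lmo4 fell by 0.20 and Ssbp4 fell by 0.36, while Ssbp3 was at -0.15 (adjusted p = 0.11). Between the orders 2 rose and 1 fell (24.0% and 24.3% of all genes), and in CSF3R-first against CSF3R-only 2 rose (21.6%). Lmo3 and Ldb2 were near 0.

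Corepressor and remodelling partners mostly rose, 10 of 13 tested in CEBPA-first against CSF3R-only, with 1 lower (median log2 fold change 0.32), where 35.4% of all genes were higher and 36.6% lower. The histone-binding protein gene Rbbp7 (1.03), the Gfi1b paralog Gfi1 (0.91) and the deacetylase gene Hdac2 (0.79) rose most, and Ctbp2 fell by 0.19. Gfi1 was at 23.7 ± 0.678, 31.6 ± 2.97 and 44.5 ± 1.23 CPM, the opposite direction to Gfi1b (adjusted p = 7.2e-08 in CEBPA-first against CSF3R-only). Between the orders 5 were higher and 1 lower (24.0% and 24.3% of all genes), and in CSF3R-first against CSF3R-only 6 were higher (21.6%). Runx1t1 was near 0.

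Among 8 tested transcription factor partners, 3 were higher and 3 lower in CEBPA-first against CSF3R-only (median log2 fold change -0.20), about the share of all genes that passed (72.0%). Erg (0.40), Cbfb (0.30) and Runx1 (0.24), factors of stem and progenitor cells, rose. Klf1, the red cell regulator, was at 25.4 ± 6.18, 22.3 ± 11.8 and 11.9 ± 2.16 CPM and fell by 1.08 on the log2 scale, Nfe2 fell by 0.76 and Fli1 fell by 0.63. Between the orders 3 were higher and 4 lower (24.0% and 24.3% of all genes), and in CSF3R-first against CSF3R-only 3 were lower (21.1%). Gata4, Gata6 and Zfpm2 were too low to be tested. Spi1 encodes PU.1, which opposes GATA1, and it also fell, from 664 ± 40.1 through 504 ± 92.6 to 341 ± 14.7 CPM in the same order of groups (log2 fold change -0.96, adjusted p = 1.3e-06). The myeloid factor gene Cebpe fell by 1.07. Cebpa was higher by 0.93, but the vectors carry human CEBPA, and reads from them counted under Cebpa cannot be told apart from its own.

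Known target genes of the complex were mostly lower. Of 24 tested, 19 fell and 2 rose in CEBPA-first against CSF3R-only, with a median log2 fold change of -2.96, beside -0.07 over the 10 factor genes. Over all genes 36.6% fell and 35.4% rose. The difference between targets and factors was not tested. The platelet tubulin gene Tubb1 fell, from 3.11 ± 0.366 through 0.538 ± 0.114 to 0.0357 ± 0.0132 CPM (adjusted p = 9.6e-10). It had 9 counts in all over the 4 CEBPA-first libraries, fewer than 3 a library on average. Its fitted log2 fold change (-6.33, SE 0.26) thus rests on few counts, and its dependence on the prior count was not tested. The globin genes Hba-a2 (log2 fold change -5.33) and Hbb-bs (-5.01) also fell, and their near-identical copies can share reads. Hbb-bs was at 59.5 ± 7.34 CPM in CSF3R-only cells, 44.2 ± 21.8 in the CSF3R-first and 1.84 ± 0.624 in the CEBPA-first group (adjusted p = 4.2e-08). The transferrin receptor gene Tfrc (0.74, adjusted p = 0.0003) and the stem cell factor receptor gene Kit (0.33, adjusted p = 0.025) rose. Of the 24 targets, 20 also stand in a marker list: 9 are erythroid, 6 megakaryocytic, 3 of mast cells and 2 of stem cells. Between the orders 17 fell and 2 rose (median -2.25, with 24.3% and 24.0% of all genes), and in CSF3R-first against CSF3R-only 11 fell (median -0.56, with 21.1% of all genes). In the last comparison all 10 megakaryocyte markers fell (median -1.76), whereas 0 of the 12 erythroid markers passed in either direction by edgeR or by DESeq2 (median -0.43), and 1 had an unadjusted p under 0.05 by edgeR. Whether these lists differ was not tested.

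**Figure D5:**
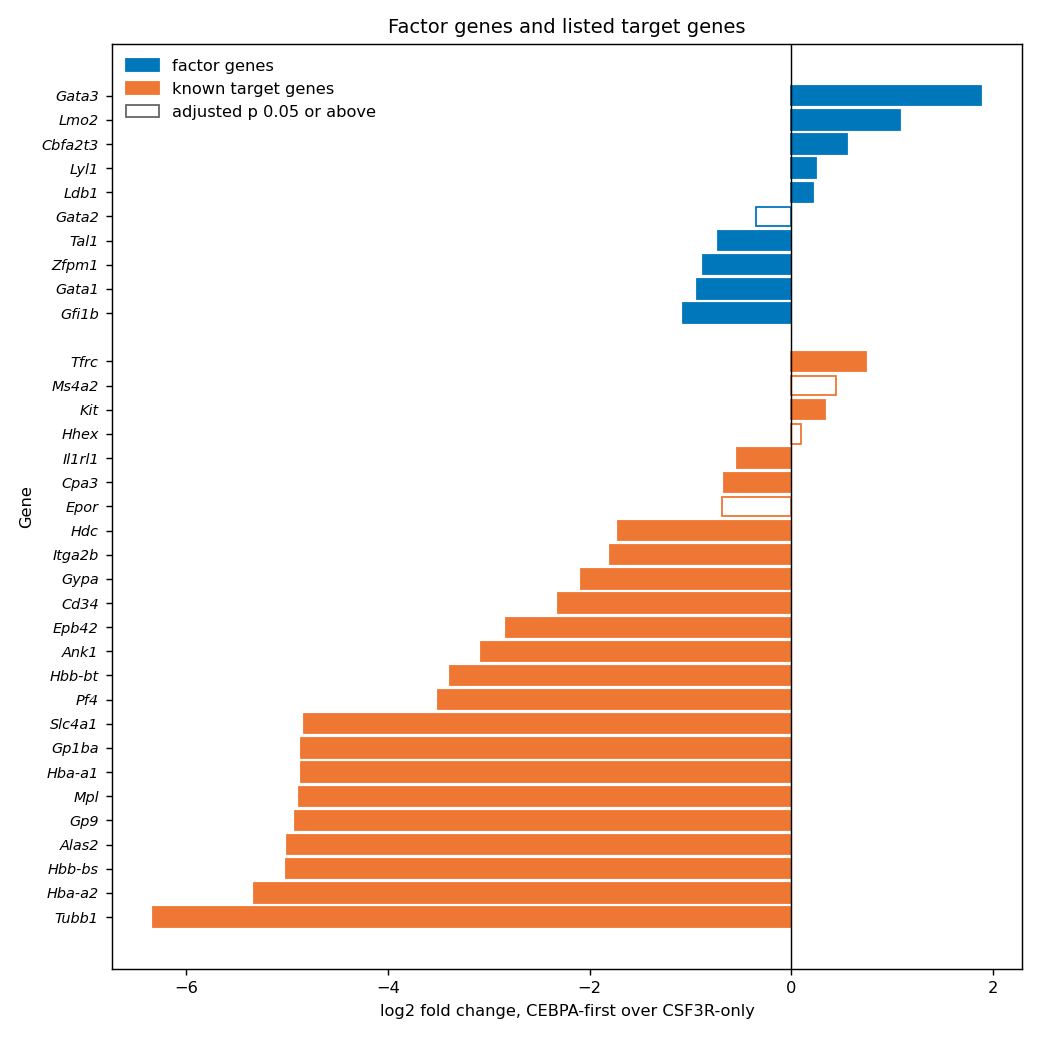
Log2 fold change in CEBPA-first over CSF3R-only cells (x axis) of the 10 factor genes (blue bars) and 24 listed target genes (orange bars). Open bars did not pass an adjusted p of 0.05. The factor genes lie between -1.07 and 1.88, and the targets reach -6.33 at Tubb1, which rests on 9 CEBPA-first counts.

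Over the 11 samples, the genes whose log2 CPM was most like that of the 3 members past the fold threshold were named among 10779 genes by Pearson correlation, which here also reflects the group differences that the samples share. For Gfi1b they were Nipa1 (0.991), Rcvrn (0.982) and the red cell regulator gene Klf1 (0.981), and 130 genes exceeded 0.9. For Lmo2 they were Arl6ip4, Parl and Dgcr6 (0.994 each), and 2932 genes exceeded 0.9. For Gata3 they were Thra (0.958), Cul7 (0.956) and Zfp74 (0.954), and 49 genes exceeded 0.9.

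On GRCm38 the members lie as follows. Gata1 (ENSMUSG00000031162) is at chrX:7959260-7978071, Gata2 (ENSMUSG00000015053) at chr6:88193891-88207032 and Gata3 (ENSMUSG00000015619) at chr2:9857078-9890034. Zfpm1 (ENSMUSG00000049577) is at chr8:122282141-122337251, Tal1 (ENSMUSG00000028717) at chr4:115056426-115071755 and Lyl1 (ENSMUSG00000034041) at chr8:84701457-84704715. Lmo2 (ENSMUSG00000032698) is at chr2:103957986-103981878, Ldb1 (ENSMUSG00000025223) at chr19:46031570-46045214, Gfi1b (ENSMUSG00000026815) at chr2:28609450-28621982 and Cbfa2t3 (ENSMUSG00000006362) at chr8:122625141-122699109. Counts cover the exons of each gene as a whole.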

How the data were processed

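RNA-seq was performed on 11 samples. The authors extracted RNA with a micro kit, made cDNA libraries with a SMARTer low-input kit, trimmed the reads with Trimmomatic and aligned them with STAR. They deposited raw counts per Ensembl gene without normalization. The submitters' processing notes name mm10 and DESeq2. The counting tool, the annotation and the use of strand are not given in the sources used here, so reads of overlapping or antisense genes may be shared.

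TMM normalization and edgeR's filterByExpr were applied to the counts (15703 of 51912 genes kept, and 279 identifiers had no symbol), and edgeR 4.0.16 (quasi-likelihood test, R 4.3.3) was run in a single fit of the 3 groups without covariates. P-values were adjusted over all tested genes by the Benjamini-Hochberg method, with a threshold of 0.05. Both comparisons with CSF3R-only share its samples. Log2 CPM used a prior count of 2. Exon lengths and positions came from GENCODE M21, and stretches shared with other genes (97% identity or more over 100 bp or more) were looked for with BLAST 2.17.0. Figures were drawn with matplotlib 3.10.9. A count of 0 allows up to 3 counts, or 0.0383 to 0.0648 CPM here. Such limits cover counting error only. Replicates differed by more than sampling noise, so each was kept.

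The members and lists were chosen with earlier results of these data known. All 10 members are named. In the lists of partner, antagonist and target genes, those that changed are named if the list holds up to 10 genes. In the longer ones of these lists the top 3 in each direction in CEBPA-first against CSF3R-only are named. Marker lists are given mainly as sums, with only some of their genes named. On simulated counts of 15358 genes for that comparison, edgeR recovered 99 of 100 genes changed by 1 and 100 of 100 changed by 2 on the log2 scale, with 13 false calls. The changed genes were drawn from those with a mean log2 CPM above 1, which leaves out Gata3. Each gene was simulated with the spread of the general trend, so the recovery does not apply to genes that vary more. Alternatives were DESeq2 1.42.0, RLE and upper-quartile normalization, other count filters, a fit of only the compared groups, a replicate block, a fold threshold, another prior count, other gene lengths and leaving out each library.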

Additional observations from a re-analysis of the deposited data

How the results depend on the processing

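No direction reversed for any member. In CEBPA-first against CSF3R-only, the 9 calls held under every alternative but the fold threshold and the filter of at least 10 counts in every sample, which removed Gata3 from all 3 comparisons and kept the other 8 calls. Gata2 also passed with at least 10 counts in every sample (-0.39, adjusted p = 0.038) and with only the compared groups fitted (-0.36, adjusted p = 0.025). Leaving out each library gave Gata2 -0.45 to -0.24 there. In CSF3R-first against CSF3R-only, Gata1 passed with DESeq2 (-0.63), without a filter (-0.59) and with at least 10 counts in every sample (-0.65). Adding the fold threshold of 1 left 4244, 2016 and 1045 genes and 3, 1 and 0 members (CEBPA-first against CSF3R-only, then the orders against each other, then CSF3R-first against CSF3R-only). Per kb of the longest transcript, Gata1 ranked 4 in CSF3R-first and in CEBPA-first, Lyl1 5 in both, Zfpm1 6 and Gfi1b 5 in CSF3R-only, and Ldb1 4 in CSF3R-only and 3 in CSF3R-first. Other scalings moved the median of all genes by at most 0.017 on the log2 scale.

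Leaving out each library in CEBPA-first against CSF3R-first gave 2 to 6 passing members and log2 fold changes of -0.92 to -0.37 for Gfi1b, -0.58 to -0.06 for Gata1, -0.76 to -0.02 for Zfpm1, -0.56 to -0.10 for Tal1 and 0.13 to 0.51 for Cbfa2t3. Over all genes it gave 6032 to 7699 calls. In CSF3R-first against CSF3R-only it gave 3 to 6 members, -0.87 to -0.36 for Gata1, -0.84 to -0.11 for Zfpm1, -0.69 to -0.15 for Gfi1b and 0.05 to 0.42 for Cbfa2t3. Over all genes it gave 4620 to 7499 calls there. The cause was not tested.

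The replicate letters were not shown to pair the samples: correlations of same-letter deviations were 0.06 to 0.36 in CEBPA-first against CSF3R-only, -0.11 to 0.29 in CEBPA-first against CSF3R-first and 0.09 to 0.31 in CSF3R-first against CSF3R-only, and not every sample correlated best with its own letter. With the letter as a replicate block, Gata2 passed in the first comparison (-0.35), 5 members in the second, with Zfpm1 (-0.43) and Cbfa2t3 (0.34) added, and 6 in the third, with Gata1 (-0.62), Zfpm1 (-0.43) and Tal1 (-0.39) added. Under this block 11501 of 15703 genes passed in the first comparison and 7705 in the second, against 11314 and 7578 without it.

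The depth limits Gata3 most among the members, since it rests on 4 to 68 counts per library.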
